A study of Homo sapiens with 24 samples.

Results

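The 10 transcripts examined here encode enzymes of glycolysis, the pathway that splits glucose into pyruvate and lactate. They were chosen by name as the listed glycolysis genes, 9 enzymes of the pathway (HK2, ALDOA, GAPDH, TPI1, PGK1, PGAM1, ENO1, PKM and LDHA) beside the regulatory enzyme PFKFB3. They make up 10 of the 58676 gene rows counted in every library, and all 10 passed the filter on low counts, which 13136 genes passed. The rule names the genes and sets no threshold on a measured value.

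The study asked how the IGF2BP proteins, a family of related RNA-binding proteins, affect transcript stability. The cells were HepG2, a line derived from a human liver tumour. They received either a non-targeting siRNA (siControl) or an siRNA that lowers 1 of the 3 family members, giving the conditions siIGF2BP1, siIGF2BP2 and siIGF2BP3. Actinomycin D, which stops transcription, was then given for 0, 3 or 6 h before collection. The 4 conditions at 3 times gave 12 groups of 2 libraries, 24 in all. The knockdowns were transient and in 1 cell line, and all groups share the transfection. The 0 h libraries had no actinomycin D. By the protocol, the plates for the 3 times were split from 1 transfected plate, so the times of a condition are not independent transfections. Beyond the replicate number, the labels do not say how the replicates of a group were separated, so p-values measure the spread between these libraries, which may in part be technical.

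In glycolysis, hexokinase phosphorylates glucose, and aldolase splits a bisphosphate formed later in the pathway into 3-carbon units. The enzymes downstream turn these into pyruvate with a net gain of ATP. Lactate dehydrogenase converts pyruvate to lactate and so renews NAD+. Hexokinase and phosphofructokinase are known control points: HK2 is the hexokinase isoform typical of tumours, and PFKFB3 makes fructose 2,6-bisphosphate, the strongest activator of phosphofructokinase. Several of these genes are textbook targets of the hypoxia factor HIF-1.

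The 3' untranslated regions of these transcripts differ in AU-rich words, short U-rich stretches known from unstable mRNAs. Stretches of HK2, PFKFB3 and LDHA are printed because these were the 3 transcripts that fell after transcription was stopped. They are read 5′ to 3′ from the GRCh38 (hg38) genome, all on the plus strand and within the 3' untranslated region, with the word searched in capitals.
HK2, chr2:74891805-74891825: cgtaatgTATTTATatgttaa
HK2, chr2:74892692-74892712: ttttgtaTATTTATcaaactt
PFKFB3, chr10:6235286-6235306: gatgtgcTATTTATttattta
LDHA, chr11:18408097-18408117: aatgtaaaATTTAtttgccaa
The words searched on the transcript strand of 1 canonical transcript a gene were ATTTA and the longer TATTTAT, which holds ATTTA within it. Among 11346 tested genes with a 3' untranslated region, of median length 1323 bases, 72.8% held ATTTA at least once and 35.3% held TATTTAT. HK2 held 5 ATTTA and 2 TATTTAT in 2418 bases, and PFKFB3 also held 5 and 2, in 2590 bases, with both TATTTAT overlapping in the stretch shown. At least 2 TATTTAT were found in 15.1% of the genes. LDHA held 1 ATTTA in 1144 bases and no TATTTAT. Of the transcripts that did not fall, GAPDH, ENO1, PKM and TPI1 held neither word in regions of 201 to 621 bases. PGAM1 held 1 ATTTA in 920 bases and ALDOA 1 in 202 bases. PGK1, which did not fall either, held 6 ATTTA and 1 TATTTAT in 3465 bases. These matches are a description of the sequence, not sites shown to act.

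In hg38 the genes lie as follows. HK2 (ENSG00000159399.9) lies at chr2:74834127-74893359, plus strand. ALDOA (ENSG00000149925.18) lies at chr16:30064164-30070457, plus strand. GAPDH (ENSG00000111640.14) and TPI1 (ENSG00000111669.14) lie at chr12:6534512-6538374 and chr12:6867119-6870948, both plus strand. PGK1 (ENSG00000102144.14) lies at chrX:77910739-78129295, plus strand. PGAM1 (ENSG00000171314.8) and PFKFB3 (ENSG00000170525.20) lie at chr10:97426191-97433444 and chr10:6144934-6254644, both plus strand. ENO1 (ENSG00000074800.15) lies at chr1:8861000-8879190, minus strand. PKM (ENSG00000067225.17) lies at chr15:72199029-72231819, minus strand. LDHA (ENSG00000134333.13) lies at chr11:18394560-18408425, plus strand.

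Gene reads ranged from 31843248 to 74252042 per library and reads of the ERCC spike-in, synthetic RNA added per amount of total RNA, from 50889 to 119088. The siRNA targets moved as labelled: at 0 h IGF2BP1 was at 21.1% of siControl in siIGF2BP1, IGF2BP2 at 26.2% in siIGF2BP2 and IGF2BP3 at 35.5% in siIGF2BP3. All 10 hepatocyte lineage markers were expressed, with a summed level of 67542 to 100316 CPM (the count of a gene scaled to the library's total) over the 24 libraries. Summed levels were 5.01 to 13.2 CPM for 5 fibroblast markers, 0.994 to 2.41 CPM for 4 immune markers and 0.934 to 2.7 CPM for 3 endothelial markers. Replicates were farthest apart in their spike-in share in siControl at 0 h, with 762 and 666 gene reads per ERCC read, and in siIGF2BP2 at 6 h, with 535 and 616. For results on the ERCC scale, libraries whose removal changes a call are named, though not all of them.

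Before transcription was stopped, GAPDH was the most and PFKFB3 the least abundant of the 10 transcripts. Levels were set per length, as CPM scaled by TMM (trimmed mean of M-values, edgeR's composition scaling) and divided by the kilobases of the canonical transcript, over the 8 libraries at 0 h. GAPDH (glyceraldehyde-3-phosphate dehydrogenase, often used as a reference gene) led with 1591 to 1774 CPM per kb. ENO1 (enolase) followed at 984 to 1102 CPM per kb. LDHA (lactate dehydrogenase A) at 486 to 529 and TPI1 (triosephosphate isomerase) at 477 to 546 CPM per kb overlapped and cannot be ordered. PKM (pyruvate kinase) stood at 280 to 317, PGAM1 (phosphoglycerate mutase) at 110 to 134, PGK1 (phosphoglycerate kinase) at 42.8 to 49.9 and HK2 at 16.6 to 28.1 CPM per kb. ALDOA (aldolase A) at 12.8 to 14.5 and PFKFB3 at 2.23 to 4.62 CPM per kb closed the order, in which no other neighbours overlapped. The ALDOA level is uncertain, since 89.8% of its canonical transcript is shared with an overlapping gene annotated on the same strand (ENSG00000285043), which was given 15 to 70 reads against 910 to 2309 for ALDOA. Reads on shared bases may have been left out of both counts, so ALDOA may be understated, and its place in the order is not settled. Annotated pseudogenes held little beside their parents: the 65 copies of GAPDH summed to at most 0.16% of its reads, and the highest share was 0.323%, for PGAM1.

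**Figure D1:**
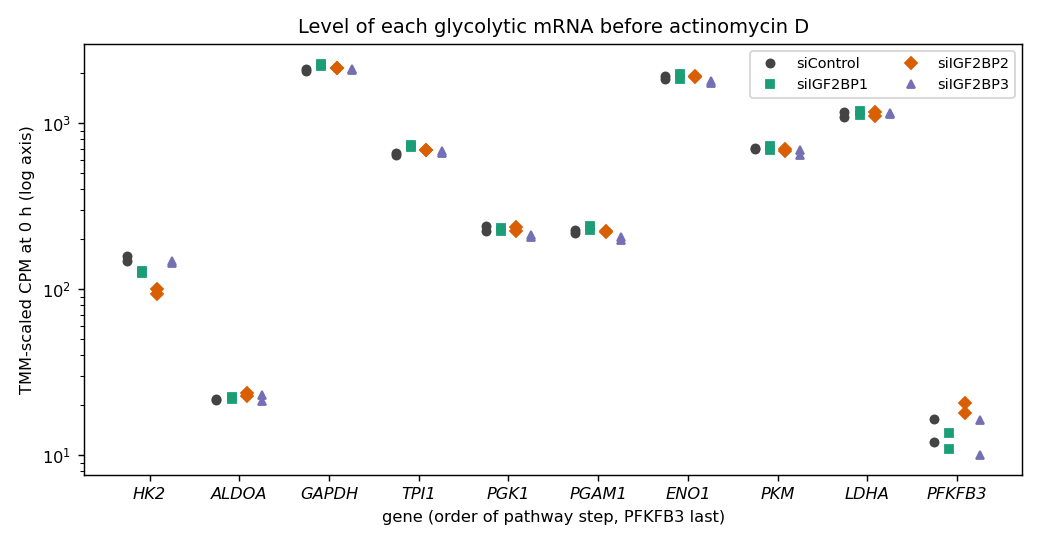
TMM-scaled CPM of each transcript at 0 h, on a log axis, with 1 point a library (2 for each of 4 conditions, by colour and shape). GAPDH lay at 2045 to 2279 CPM and PFKFB3 at 9.98 to 20.7 CPM, and the spread between libraries is widest for HK2 and PFKFB3.

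Over the 8 libraries at 0 h, HK2 and PFKFB3 varied more than the other 8 transcripts. The highest of the 8 libraries at 0 h was 1.09 times the lowest for LDHA, 1.11 times for GAPDH, 1.12 times for ENO1, 1.13 times for PKM and ALDOA, 1.14 times for TPI1, 1.17 times for PGK1 and 1.22 times for PGAM1. The ratio was 1.69 for HK2 and 2.07 for PFKFB3. It holds the spread between replicates as well as that between conditions. For PFKFB3 the replicates stood at 16.4 and 12 CPM in siControl and at 16.3 and 9.98 CPM in siIGF2BP3.

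HK2, which carries out the first step of the pathway, was lower after knockdown of IGF2BP1 and lower still after knockdown of IGF2BP2. At 0 h its TMM-scaled level was 158 and 147 CPM in siControl, 125 and 129 CPM in siIGF2BP1, 93.5 and 99.5 CPM in siIGF2BP2, and 147 and 144 CPM in siIGF2BP3. Both siIGF2BP1 libraries and both siIGF2BP2 libraries lay below every siControl library, and those of siIGF2BP3 reached into the siControl range. The log2 difference from siControl was -0.27 (SE 0.0528, 83.0% of siControl, edgeR adjusted p 0.00026) in siIGF2BP1 and -0.66 (SE 0.0533, 63.3% of siControl, edgeR adjusted p 4.22e-12) in siIGF2BP2. In siIGF2BP3 it was -0.07 (95% interval -0.17 to 0.04, edgeR adjusted p 0.529). The difference between siIGF2BP2 and siIGF2BP1 itself passed the test (log2 -0.39, edgeR adjusted p 5.83e-07). In bulk RNA, fewer cells with the transcript and less of it per cell cannot be told apart.

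HK2 stayed lower in both knockdowns after transcription was stopped. At 3 h the values were 118 and 115 CPM in siControl, 105 and 93.5 CPM in siIGF2BP1 and 75.2 and 69.0 CPM in siIGF2BP2, and at 6 h they were 95.3 and 92, 84.7 and 76.5, and 63.4 and 58.2 CPM. At neither time did a library of these knockdowns reach siControl. Averaged over the 3 times, HK2 was at 84.7% of siControl in siIGF2BP1 (log2 -0.24, SE 0.0318, edgeR adjusted p 8.69e-08) and 63.3% in siIGF2BP2 (log2 -0.66, SE 0.0319, edgeR adjusted p 2.55e-19). The times of a condition share a transfected plate, so the average adds no independent transfections. The 2 HK2 calls at 0 h held without each library, with ERCC scaling and in DESeq2.

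PFKFB3, the scarcest of the 10 transcripts, moved the other way in siIGF2BP2. At 0 h it stood at 16.4 and 12 CPM in siControl, 10.9 and 13.5 CPM in siIGF2BP1, 17.8 and 20.7 CPM in siIGF2BP2, and 16.3 and 9.98 CPM in siIGF2BP3. Both siIGF2BP2 libraries were above all the others, while siControl, siIGF2BP1 and siIGF2BP3 overlapped, and the replicates of siControl and siIGF2BP3 lay far apart. The log2 difference in siIGF2BP2 was 0.44 (SE 0.149, 136% of siControl, edgeR adjusted p 0.044). This call at 0 h was lost without siControl replicate 2 (0.22, edgeR adjusted p 0.588), without siIGF2BP2 replicate 1 (0.54, 0.0756) or replicate 2 (0.32, 0.401), and in DESeq2 (adjusted p 0.204). Over the 3 times the difference was 0.51 (SE 0.0989, 142% of siControl, edgeR adjusted p 7.67e-05). The times of a condition share a transfected plate, so this smaller p-value is not support from separate transfections. At 3 h PFKFB3 stood at 5.29 and 5.16 CPM in siControl and 8.93 and 8.45 CPM in siIGF2BP2, and at 6 h at 4.16 and 3.67 against 5.27 and 4.78 CPM. The groups did not overlap at either time, though the 6 h difference alone (log2 0.35) did not pass the test (edgeR adjusted p 0.219). In siIGF2BP1 the difference at 0 h was -0.22 (95% interval -0.53 to 0.09) and in siIGF2BP3 -0.09 (-0.40 to 0.22), neither past the threshold (edgeR adjusted p 0.391 and 0.819). PFKFB3 differed between siIGF2BP2 and siIGF2BP1 (log2 0.66, edgeR adjusted p 0.0013).

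**Figure D2:**
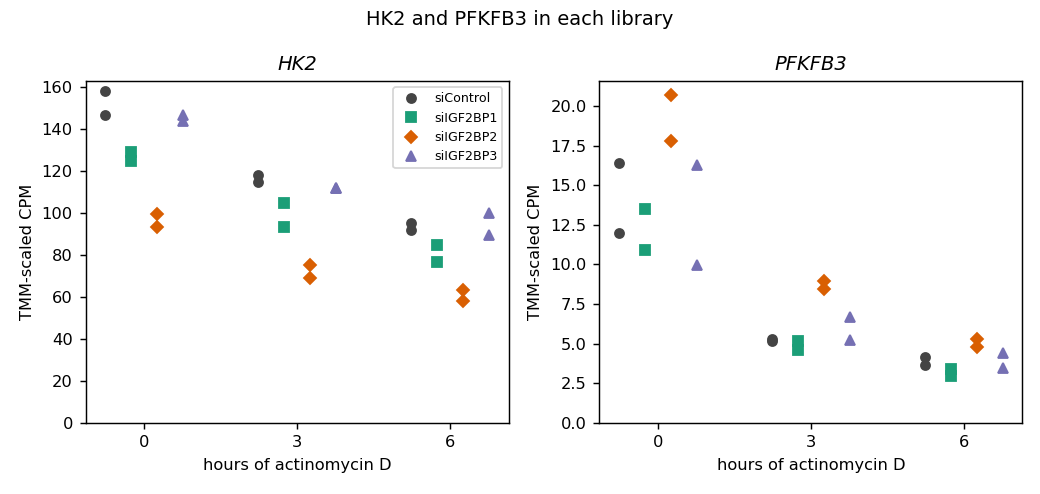
TMM-scaled CPM (axis from 0) of HK2 and PFKFB3 against hours of actinomycin D, with 1 point a library and the 4 conditions by colour and shape. The siIGF2BP2 libraries are the lowest for HK2 at every time (93.5 and 99.5 CPM at 0 h) and the highest for PFKFB3 at every time (17.8 and 20.7 CPM at 0 h).

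Among the enzymes downstream, the differences at 0 h were small in size. In siIGF2BP1, 3 of the 10 transcripts passed the test, against 15.9% of all genes tested: HK2 fell, while TPI1 and GAPDH rose. TPI1, which interconverts the 3-carbon products of aldolase, stood at 655 and 645 CPM in siControl and 715 and 738 CPM in siIGF2BP1, without overlap (log2 0.16, SE 0.0295, 112% of siControl, edgeR adjusted p 0.00011). GAPDH stood at 2114 and 2045 CPM in siControl and 2189 and 2279 CPM in siIGF2BP1 (log2 0.10, SE 0.0291, 107% of siControl, edgeR adjusted p 0.0106). On the ERCC scale neither rise passed (TPI1 0.13, adjusted p 0.521, and GAPDH 0.07, adjusted p 0.81), and GAPDH also lost its call without siControl replicate 2 (0.08) or siIGF2BP1 replicate 2 (0.07).

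In siIGF2BP2, again 3 of 10 passed, against 12.1% of all genes: HK2 fell, and PFKFB3 and TPI1 rose. The TPI1 rise was at the edge of the threshold, from 655 and 645 to 692 and 688 CPM (log2 0.09, edgeR adjusted p 0.0484), and leaving out any 1 of the 4 libraries ended the call. In siIGF2BP3, 2 of 10 passed, against 9.39% of all genes, and both fell. PGK1, the first ATP-yielding step, stood at 240 and 224 CPM in siControl and 211 and 206 CPM in siIGF2BP3 (log2 -0.15, SE 0.036, 90.0% of siControl, edgeR adjusted p 0.00376). PGAM1 stood at 226 and 216 CPM in siControl and 206 and 198 CPM in siIGF2BP3 (log2 -0.13, SE 0.0366, 91.5% of siControl, edgeR adjusted p 0.0185). The groups did not overlap in either case, but both calls were lost without siControl replicate 1 or siIGF2BP3 replicate 2, and on the ERCC scale (PGK1 -0.07, PGAM1 -0.05). The median difference over the 10 transcripts was 0.02 in siIGF2BP1, 0.01 in siIGF2BP2 and -0.07 in siIGF2BP3, beside 0.01, 0.02 and 0 over all genes tested. Set against each other at 0 h, siIGF2BP2 and siIGF2BP1 differed in 2 of 10 transcripts (18.7% of all genes), siIGF2BP3 and siIGF2BP1 in 6 (14.3%) and siIGF2BP3 and siIGF2BP2 in 5 (9.19%). These pairs were not tested on the ERCC scale or without each library.

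**Figure D3:**
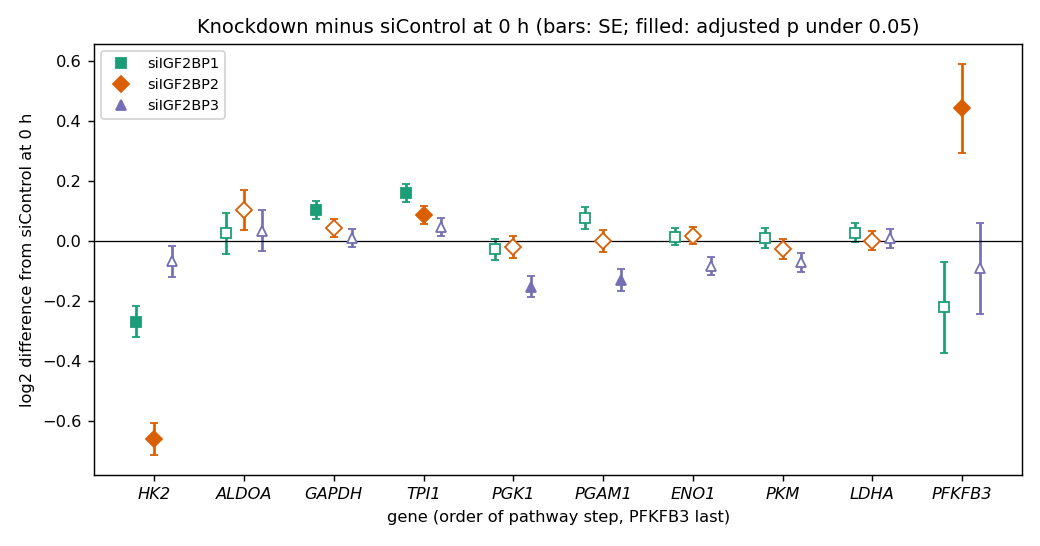
Log2 difference of each transcript from siControl at 0 h for 3 knockdowns, with bars of 1 SE; filled symbols passed an edgeR adjusted p of 0.05. HK2 (-0.27 and -0.66) and PFKFB3 in siIGF2BP2 (0.44) stand away from 0, and the other 8 transcripts lie between -0.15 and 0.16.

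With the 3 times averaged (6 libraries against 6, the times of a condition sharing a transfected plate), 5 of 10 passed in siIGF2BP1 (39.7% of all genes), 4 in siIGF2BP2 (33.8%) and 4 in siIGF2BP3 (32.3%). In siIGF2BP1, HK2 and LDHA fell and TPI1, GAPDH and PGAM1 rose. LDHA, which makes lactate from pyruvate, fell by 0.06 on the log2 scale (SE 0.0184, edgeR adjusted p 0.00767), but on the ERCC scale its difference was 0 (edgeR adjusted p 0.963). In siIGF2BP2, HK2 and PKM fell and PFKFB3 and TPI1 rose. The call was lost without siControl replicate 1 (-0.04, 0.0656) or siIGF2BP1 replicate 1 (-0.05, 0.0524) at 0 h for LDHA in siIGF2BP1. It was lost without 6 of the 12 libraries, one at a time, for PGAM1 in siIGF2BP1, and in siIGF2BP2 without 10 for PKM and 7 for TPI1. In siIGF2BP3, ENO1 (-0.07), PGAM1 (-0.13), PGK1 (-0.09) and PKM (-0.07) fell, with edgeR adjusted p of 0.00557 or less. On the ERCC scale these 4 falls in siIGF2BP3 turned to 0.11, 0.05, 0.08 and 0.11, as the median of all genes moved from 0 to 0.18, and the fall of PKM in siIGF2BP2 turned to 0.09, as that median moved from 0.01 to 0.15. Relative to the median of all genes they were lower on both scales. This is not separate support, since a change of scale moves all genes by nearly the same amount. HK2 in siIGF2BP1 and siIGF2BP2 was lower on both scales.

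After transcription was stopped, some of the transcripts fell over 6 h and the others did not fall detectably. In siControl, PFKFB3, HK2 and LDHA fell over 6 h, 3 of 10 against 80.3% of all genes tested. The slope, given as the log2 change over 6 h on the ERCC scale, had a median of -0.08 over the 10 transcripts and -0.88 over all genes.

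PFKFB3 was lost fastest. Relative to the mean of siControl at 0 h, where the 2 libraries stood at 122% and 78.3%, it stood at 27.0% and 26.2% at 3 h and 16.6% and 13.5% at 6 h. Its siControl slope was -2.75 (95% interval -3.33 to -2.18, edgeR adjusted p 6.59e-09). With the study's first-order equation its half-lifetime was 1.83 h, which moved between 1.62 and 2.18 h when each library was left out, and 8.15% of genes decayed faster. HK2 stood at 56.4% and 54.6% at 3 h and at 35.6% and 31.6% at 6 h. Its slope was -1.57 (95% interval -1.81 to -1.34, edgeR adjusted p 2.43e-11) and its half-lifetime 3.67 h (3.26 to 4.26 h without each library), beside a median of 6.25 h over genes with a half-lifetime. On the TMM scale, which sets the median of all genes near no change, the HK2 half-lifetime was 8.09 h and that of PFKFB3 2.53 h.

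On the ERCC scale LDHA fell after 3 h rather than before. In siControl it stood at 110% and 90.2% at 0 h, 99.5% and 98.8% at 3 h, and 74.8% and 68.2% at 6 h. The change from 0 to 3 h was -0.01 and from 3 to 6 h -0.47 on the log2 scale, and the difference between the later and the earlier change passed the test (-0.46, SE 0.137, edgeR adjusted p 0.009). The knockdowns gave -0.39 (edgeR adjusted p 0.0431) in siIGF2BP1, -0.16 (0.458) in siIGF2BP2 and -0.33 (0.104) in siIGF2BP3. In siControl the call was lost without replicate 2 at 0 h (-0.32, edgeR adjusted p 0.0976), replicate 1 or 2 at 3 h (-0.45 and -0.47) or replicate 2 at 6 h (-0.39), and the siIGF2BP1 call was lost without any 1 of its 6 libraries (-0.29 to -0.48). On the TMM scale, chosen after the data were seen and free of the spike-in, the value was -0.50, -0.47, -0.44 and -0.46 in siControl, siIGF2BP1, siIGF2BP2 and siIGF2BP3, each past the test (largest edgeR adjusted p 6.02e-08). That scale gave negative values past the test for 6 more transcripts in siControl, GAPDH (-0.28), TPI1 (-0.24), PKM (-0.20), PGAM1 (-0.20), PGK1 (-0.19) and ENO1 (-0.19), so a later change below the earlier one was not particular to LDHA there. On that scale LDHA rose from 1165 and 1089 CPM at 0 h to 1538 and 1532 CPM at 3 h in siControl and stood at 1480 and 1470 CPM at 6 h.

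On the ERCC scale, 2 of 10 transcripts differed between the later and the earlier change in siControl, against 12.6% of all genes, and PFKFB3 was the other one. It changed more early than late, with -1.90 from 0 to 3 h and -0.82 from 3 to 6 h (difference 1.08, SE 0.273, edgeR adjusted p 0.00107). This was not past the test without siControl replicate 1 at 0 h (0.73, edgeR adjusted p 0.0609) or replicate 2 at 3 h (1.04, 0.0537). On the TMM scale it was 1.03 (edgeR adjusted p 0.011). HK2 fell by 0.85 and then 0.73 in siControl, a difference of 0.12 (95% interval -0.17 to 0.41). In the knockdowns 1, 1 and 0 of 10 transcripts differed in this way, against 11.5%, 18.0% and 12.1% of all genes: LDHA in siIGF2BP1, and in siIGF2BP2 HK2, whose loss slowed from -0.90 to -0.44 (difference 0.45, edgeR adjusted p 0.0193). The HK2 value was not past the test with TMM (0.17, edgeR adjusted p 0.203) or without siIGF2BP2 replicate 2 at 0 h (0.40, 0.1), replicate 1 at 3 h (0.55, 0.0651) or replicate 2 at 3 h (0.36, 0.302). In siIGF2BP3 2 of 10 passed an unadjusted p of 0.05 in edgeR. The half-lifetime of LDHA varied with the method: the equation gave 23.6 h in siControl, between 13.1 and 193 h without each library, while the fitted slope gave 12.4 h. By the equation, 77.8% of genes decayed faster than LDHA in siControl.

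**Figure D4:**
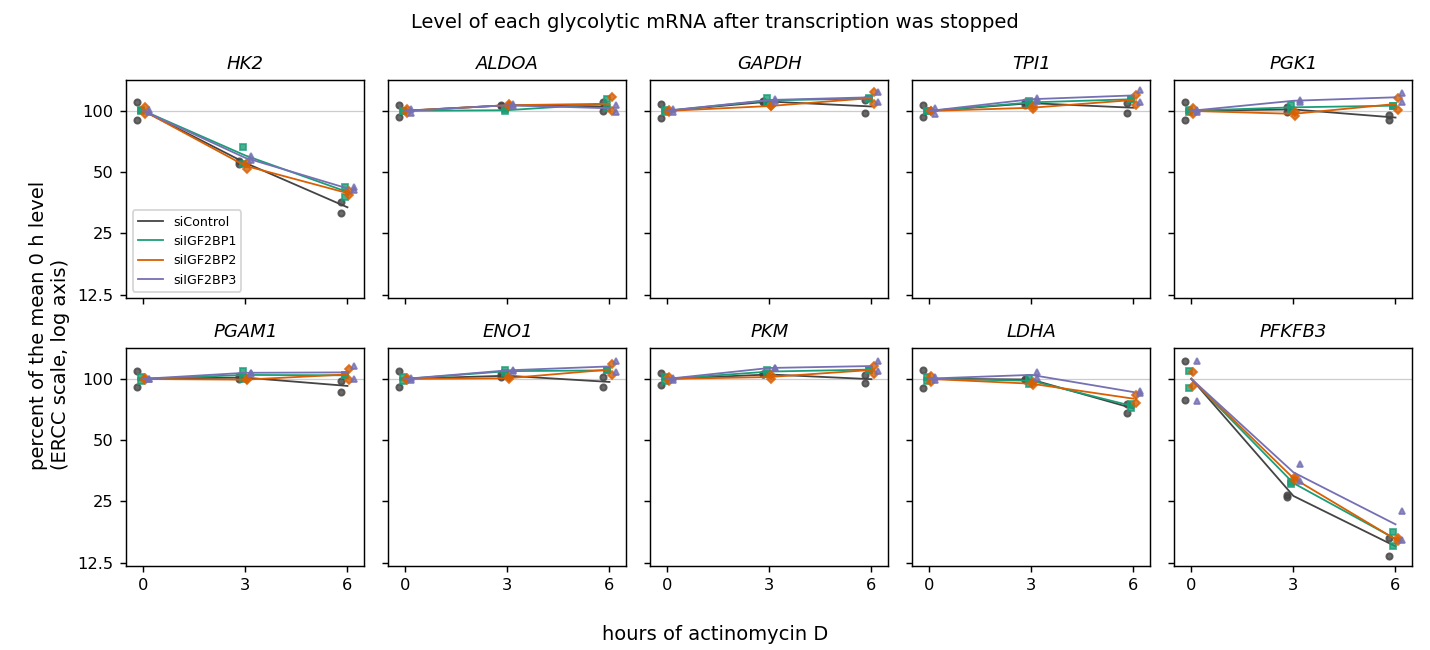
Percent of the mean 0 h level of the same condition (ERCC scale, log axis) against hours of actinomycin D, a panel a transcript, with points for libraries and lines through the means of 4 conditions. PFKFB3 and HK2 fall in every condition (27.0% and 26.2%, and 56.4% and 54.6%, at 3 h in siControl), LDHA falls after 3 h on this scale, and the other 7 stay near 100%.

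The remaining 7 enzymes, ALDOA, GAPDH, TPI1, PGK1, PGAM1, ENO1 and PKM, did not fall detectably. Over all conditions their 56 library values lay between 94.3% and 116% (median 106.5%) of the 0 h mean at 3 h and between 86.6% and 127% (median 109%) at 6 h. Their siControl slopes ran from -0.12 (PGAM1) to 0.07 (GAPDH and ALDOA), none past the threshold in edgeR, which was passed by LDHA, HK2 and PFKFB3 alone at an unadjusted p of 0.05 as well. The lower ends of their 95% intervals correspond to half-lifetimes of 20.7 h for PGAM1, 21.4 h for PGK1, 27.3 h for ENO1, 37.5 h for PKM, 50 h for ALDOA and 54.5 h for GAPDH and TPI1, so that shorter ones lie outside the interval. Without siControl replicate 2 at 0 h, PGK1 (-0.25), PGAM1 (-0.24) and ENO1 (-0.17) also fell past the threshold (edgeR adjusted p 0.00608, 0.012 and 0.05), which made 6 of 10.

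Several of the 7 rose on the ERCC scale in the knockdowns. GAPDH (0.20 and 0.21) and TPI1 (0.19 and 0.18) rose in siIGF2BP1 and siIGF2BP2, where 2.69% and 2.44% of all genes rose. In siIGF2BP3, GAPDH, TPI1, PGK1, ENO1 and PKM rose by 0.20 to 0.25, against 2.91% of all genes. Each of these 9 calls was lost without replicate 1 of its own condition at 0 h, where the rises were 0.17 to 0.20 (edgeR adjusted p 0.0592 to 0.167). Other libraries reduced them more: without siIGF2BP2 replicate 2 at 6 h GAPDH stood at 0.12 and TPI1 at 0.10 (edgeR adjusted p 0.278 and 0.309), and without siIGF2BP3 replicate 1 at 6 h ENO1 stood at 0.13 (0.227). Each of these calls was also lost without some other library of its own condition at 0 or 6 h. Such a rise is relative to spike-in added per amount of total RNA. The fall of LDHA depends on this scale too, and its siControl slope turned to 0.39 with TMM, where the median of all genes moved from -0.88 to -0.02. PFKFB3 and HK2 fell on every scale tried. The distance of the 10 transcripts' median from that of all genes was 0.81 on both scales. A change of scale moves all genes by nearly the same amount, so this distance could hardly differ and is not a check.

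**Figure D5:**
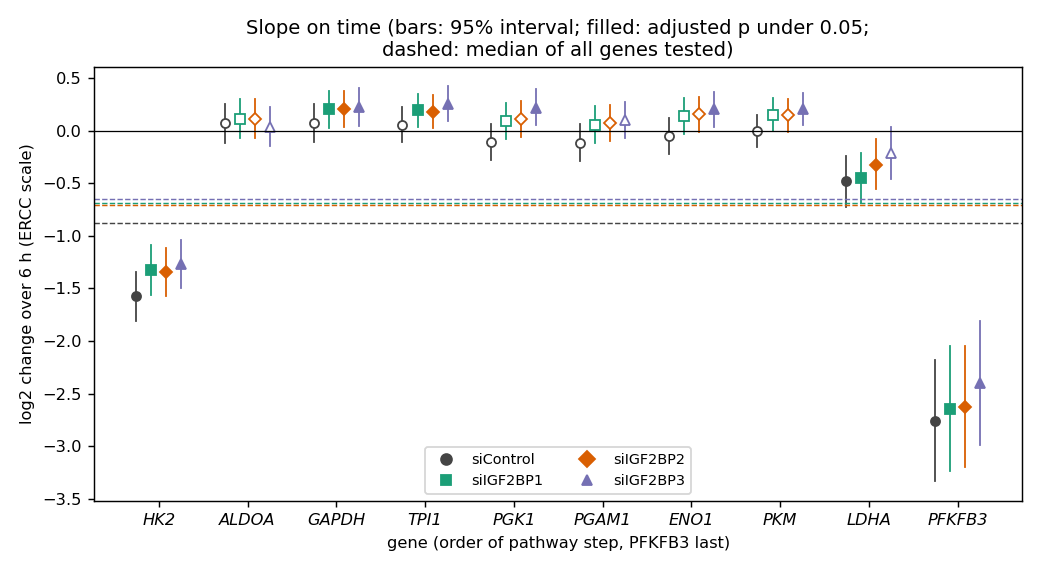
Slope of each transcript on time, as log2 change over 6 h (ERCC scale), in 4 conditions, with 95% intervals; filled symbols passed an edgeR adjusted p of 0.05 and dashed lines mark the median of all genes (-0.88 in siControl). HK2 and PFKFB3 lie below those lines in every condition, and the other 8 above them.

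HK2 and PFKFB3 fell over 6 h in all 4 conditions. LDHA also fell in siIGF2BP1 (-0.45, edgeR adjusted p 0.00163) and siIGF2BP2 (-0.32, 0.0153), but did not pass in siIGF2BP3 (-0.22, 0.102). This made 3, 3 and 2 falls among the 10, against 69.1%, 71.3% and 67.2% of all genes. The LDHA call in siIGF2BP2 was lost without its replicate 2 at 0 h (-0.31, 0.0612) or replicate 1 at 6 h (-0.24, 0.125).

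No difference in loss between a knockdown and siControl was detected for any of the 10. Slope differences from siControl passed the edgeR test for 0 of 10 transcripts in each knockdown, against 0.0152%, 0% and 0.0228% of all genes in siIGF2BP1, siIGF2BP2 and siIGF2BP3. At an unadjusted p of 0.05 there were 0, 0 and 2, the 2 being PGK1 (0.33, 95% interval 0.09 to 0.57) and ENO1 (0.25, 0.01 to 0.49) in siIGF2BP3, and DESeq2 called 0 in each. Without siControl replicate 2 at 0 h, both passed in siIGF2BP3 (0.47 and 0.37, edgeR adjusted p 0.0375 and 0.0495). The median difference over the 10 was 0.15, 0.16 and 0.23, beside 0.19, 0.17 and 0.22 over all genes.

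For HK2 the slope was -1.33 in siIGF2BP1, -1.35 in siIGF2BP2 and -1.27 in siIGF2BP3. Its differences from siControl were 0.25 (95% interval -0.08 to 0.57), 0.23 (-0.09 to 0.55) and 0.31 (-0.02 to 0.63). Its half-lifetime was 4.31, 3.82 and 4.29 h. For PFKFB3 the differences were 0.11 (-0.70 to 0.92), 0.13 (-0.66 to 0.92) and 0.36 (-0.45 to 1.17), and the half-lifetime was 2, 2.05 and 2.21 h. The lower HK2 in siIGF2BP2 and the higher PFKFB3 thus stood beside losses over time that were not shown to differ, within the intervals given. LDHA gave half-lifetimes of 23.4, 24.8 and 120 h. The last moved between 59.6 and 6750 h without each library, and the slope difference in siIGF2BP3 was 0.27 (-0.08 to 0.61). Over genes with a half-lifetime the median was 6.94, 6.53 and 7.03 h in the knockdowns. Of 12148 genes, 1832, 1174 and 1956 had none, beside 1141 in siControl.

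The other genes of glucose metabolism were described from 5 lists, whose counts stand beside the shares of all genes called at 0 h (15.9%, 12.1% and 9.39% in siIGF2BP1, siIGF2BP2 and siIGF2BP3) and falling in siControl (80.3%). Of 26 other glycolysis genes, 17 passed the filter and 2 of them passed the 0 h test in each knockdown, near those shares, with medians of 0.05, -0.02 and -0.12. PKLR, the liver and red cell pyruvate kinase, fell in siIGF2BP2 (log2 -0.72, SE 0.106, edgeR adjusted p 3.73e-06). HKDC1, a hexokinase relative, fell there too (-0.30, edgeR adjusted p 0.0022), beside HK2. ENO3, an enolase, rose in siIGF2BP1 (0.32) and siIGF2BP3 (0.35). In siControl 6 of the 17 fell over time (median slope -0.16, against -0.88 and 80.3% of all genes), the steepest being PFKFB4 (-1.85), a relative of PFKFB3, then TIGAR (-1.67), which opposes it, and BPGM (-1), a bisphosphoglycerate mutase.

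Glucose and lactate transport genes, 6 in all, gave 4, 3 and 2 calls at 0 h in the knockdowns of IGF2BP1, IGF2BP2 and IGF2BP3 (15.9%, 12.1% and 9.39% of all genes), with medians of 0.04, -0.07 and 0. The glucose transporter SLC2A3 fell in all 3 knockdowns (-0.81, -0.40 and -0.47) and so did SLC2A1 (-0.70, -0.26 and -0.30), with edgeR adjusted p of 0.00057 or less. SLC2A2, the liver glucose transporter, rose in siIGF2BP1 (0.21). In siControl 5 of the 6 fell over time, near the 80.3% of all genes (median slope -0.53), led by SLC2A1 (-0.85), SLC16A1 (-0.54) and SLC16A3 (-0.54), the last 2 being lactate transporters.

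Of 17 tested genes of pyruvate fate and gluconeogenesis, 5, 2 and 1 passed at 0 h in the same knockdowns, against 15.9%, 12.1% and 9.39% of all genes, with medians of 0.08, -0.03 and -0.03. DLAT, a subunit of pyruvate dehydrogenase, fell in siIGF2BP1 (-0.36), as did its inhibitory kinase PDK1 (-0.27). The mitochondrial pyruvate carrier MPC1 fell in siIGF2BP2 (-0.30) and siIGF2BP3 (-0.15). In siControl 14 of the 17 fell over time, near the 80.3% of all genes (median slope -0.39), most steeply the pyruvate dehydrogenase phosphatases PDP1 (-4.98) and PDP2 (-3.44) and the gluconeogenic enzyme PCK1 (-2.35).

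Among 10 regulators of glycolytic genes, 5, 3 and 1 passed at 0 h for the knockdowns in the same order (all genes 15.9%, 12.1% and 9.39%), with medians of 0.07, 0.05 and 0.02. TXNIP, known to restrain glucose uptake, fell in siIGF2BP2 (-0.94, SE 0.0713, edgeR adjusted p 7.64e-13). HIF1AN, which inactivates HIF, fell in siIGF2BP1 (-0.22). EPAS1, a HIF subunit, rose in siIGF2BP1 (0.19) and fell in siIGF2BP3 (-0.13). In siControl 9 of the 10 fell over time (80.3% of all genes, median slope -1.06), with MYC (-6.31), TXNIP (-3.19) and MLX (-1.40), a partner of the carbohydrate response factor, steepest.

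Of 12 tested HIF targets outside glycolysis, 3 passed at 0 h in siIGF2BP1 (15.9% of all genes) and 4, all lower, in siIGF2BP3 (9.39%). In siIGF2BP2 edgeR called 0 of 12, with 1 at an unadjusted p of 0.05. The medians were -0.14, -0.05 and -0.19. The carbonic anhydrase CA9 fell (-1.05) and the stress gene DDIT4 rose (0.57) in siIGF2BP1, and NDRG1 fell in siIGF2BP3 (-0.38). In siControl 9 of the 12 fell, near the 80.3% of all genes (median slope -1.29), with DDIT4 (-7.94), ADM (-5.82) and ANKRD37 (-5.74) steepest, while LDHA, also a HIF target, changed by -0.48 and PGK1 by -0.11. Slope differences from siControl passed for 0 genes of any of these lists in edgeR.

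The transcripts whose course over the 12 group means was most like that of HK2, by Pearson correlation of the log2 ERCC-scaled level over 9723 genes, were METAP1 (r = 0.994), ETV5 (0.991) and HLF (0.99). For PFKFB3 they were IRX3 (0.994), CRACD (0.993) and SFT2D3 (0.993), and for LDHA RFXANK (0.972), WDR46 (0.971) and WDR24 (0.969). These values are a description, since the means share the time course and the scale.

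In promoter windows of 250 bases before to 50 after the start (RefSeq, GRCh38.p14), all 10 genes were matched. The letters ACGTG, the core of a known HIF binding word, stood on either strand in 5 of 10, with 5 matches in LDHA, 3 in PGK1, 2 each in GAPDH and HK2 and 1 in ALDOA, counted over both strands. They stood in 21.6% of 27195 windows. Unlike the 3' untranslated regions, these windows were not limited to tested genes. ENO1, PFKFB3, PGAM1, TPI1 and PKM had none in this window.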

How the data were processed

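RNA was measured in 24 HepG2 libraries (4 siRNA conditions, 3 times, 2 replicates). According to the labels and the study's methods, the authors trimmed reads with Trimmomatic 0.39, aligned them to hg38 with HISAT2 2.1.0 and counted them per GENCODE gene with HTSeq. The deposited values are raw read counts, not normalized. The counting settings for strand and overlaps are not given in the sources used here. HTSeq summary rows (13.551% to 17.064% of each library) and 45 pseudoautosomal Y rows stayed out of library sizes and tests.

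From the counts, edgeR 4.0.16 (R 4.3.3) quasi-likelihood tests were run on the 13136 genes that reached 1 CPM in 2 or more libraries, two-sided, with Benjamini-Hochberg adjustment over these genes and a threshold of 0.05. Levels were fitted as 12 group means with TMM scaling (12 residual degrees of freedom). Loss over time was fitted as an intercept and a slope for each condition (16 residual degrees of freedom), scaled by the ERCC total, where the authors had converted CPM by a linear fit to the spike-in. Half-lifetime is ln2/K, with K the mean of the rates over 0 to 3 h and 0 to 6 h. Values are counting-based and PCR duplicates were not removed. Replicates of a group differed by more than counting noise (chi-square per degree of freedom at least 3.246), so none was merged. Annotation was GENCODE for GRCh38, a later release than that counted on. The fits were tested on simulated counts scaled by TMM. For the slope difference no minimum recovery was set and ERCC scaling was not used. That test thus does not show how often a true slope difference would be found.

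The genes and lists were chosen with earlier results of these data known. Named genes are the 10 transcripts, the siRNA targets, for each list up to 3 genes with the largest difference at 0 h and up to 3 with the steepest siControl slope past the threshold, and the 3 most like HK2, PFKFB3 and LDHA. Alternatives were DESeq2 1.42.0, other scalings, other filters, added pseudogene counts, only the libraries compared, 0 and 6 h alone, a replicate block, and leaving out each library. The shape of the loss was also run with TMM and without each library of the condition, both chosen after the data were seen.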

Additional observations from a re-analysis of the deposited data

Results flagged for a closer look

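The knockdowns were compared with each other at 0 h by the same edgeR fit, and 13 of the differences passed, each a log2 value with its edgeR adjusted p. Between siIGF2BP2 and siIGF2BP1, HK2 was lower by -0.39 (5.83e-07) and PFKFB3 higher by 0.66 (0.0013), 2 of 10 against 18.7% of all genes. Between siIGF2BP3 and siIGF2BP1, 6 of 10 passed against 14.3% of all genes. HK2 was higher in siIGF2BP3 by 0.20 (0.0076). GAPDH (-0.09, 0.0244), PGK1 (-0.12, 0.0157), ENO1 (-0.10, 0.0194), TPI1 (-0.11, 0.00588) and PGAM1 (-0.21, 8.2e-05) were lower there. Against siControl at 0 h, the median of all genes for siIGF2BP1 was 0.01 with TMM and -0.02 with ERCC scaling. For siIGF2BP3 the same medians were 0 and 0.09. The change of scale thus raises siIGF2BP3 relative to siIGF2BP1 by about as much as GAPDH, PGK1, ENO1 and TPI1 were lower. Whether these transcripts are lower with ERCC scaling was not tested. Between siIGF2BP3 and siIGF2BP2, 5 of 10 passed against 9.19% of all genes. HK2 was higher in siIGF2BP3 by 0.59 (1.02e-10) and PFKFB3 lower by -0.53 (0.0174), as were PGK1 (-0.13, 0.0129), ENO1 (-0.10, 0.0214) and PGAM1 (-0.13, 0.0192).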

How the results depend on the processing

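With 2 libraries a group, 1 library can decide a small difference, and the ERCC scale carries the error of the spike-in. On the ERCC scale, 1 transcript in place of 3 was called at 0 h in siIGF2BP1 and 0 in place of 2 in siIGF2BP3 (0 at an unadjusted p of 0.05 in edgeR, 2 in DESeq2). In siIGF2BP2, DESeq2 and added pseudogene counts each gave 1 in place of 3. Over all times the ERCC scale gave 8 in place of 4 in siIGF2BP2 and 7 in place of 4 in siIGF2BP3. Among the 13136 genes tested, that scale called 649 in place of 2093 at 0 h in siIGF2BP1 and 471 in place of 1234 in siIGF2BP3. Over all times it called 6307 in place of 4440 in siIGF2BP2 and 7203 in place of 4239 in siIGF2BP3. The cause was not tested. The share of higher calls among all called genes moved with TMM and ERCC from 59.2% to 39% in siIGF2BP1, 54.9% to 76.9% in siIGF2BP2 and 52.4% to 82.4% in siIGF2BP3 at 0 h, from 53.5% to 75.2%, 50.7% to 92% and 50.3% to 96.4% over all times, and for siControl slopes from 0.312% with ERCC to 28.7% with library size and 48.4% with TMM. Without each library, calls at 0 h ranged from 1 to 2 in siIGF2BP2 and from 0 to 2 in siIGF2BP3, those over all times in siIGF2BP2 from 2 to 3 (2 without siControl replicate 2 at 0, 3 or 6 h, siIGF2BP2 replicate 1 at 0 h or replicate 2 at 3 h), falls in siControl from 3 to 6 and slope differences in siIGF2BP3 from 0 to 2.

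Over all times the ERCC scale turned ENO1 (0.11), GAPDH (0.15), HK2 (0.14), PGAM1 (0.05), PGK1 (0.08) and PKM (0.11) in siIGF2BP3, and LDHA (0.11), PGAM1 (0.13) and PKM (0.09) in siIGF2BP2. Slopes in siControl turned with library size and TMM for ENO1 (0.50 and 0.82), LDHA (0.07 and 0.39), PGAM1 (0.43 and 0.75), PGK1 (0.44 and 0.76) and PKM (0.54 and 0.86). LDHA turned with TMM in siIGF2BP1 (0.22), siIGF2BP2 (0.35, and 0.08 with library size) and siIGF2BP3 (0.43). With TMM the later minus the earlier change in siIGF2BP2 turned for ENO1 (-0.14), GAPDH (-0.23), PGAM1 (-0.18), PKM (-0.20) and TPI1 (-0.21).

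Half-lifetimes in siControl, siIGF2BP1, siIGF2BP2 and siIGF2BP3 with TMM were 8.09, 8.81, 7.96 and 8.69 h for HK2 and 2.53, 2.62, 2.84 and 2.98 h for PFKFB3, and LDHA had none. From the fitted slope and from 0 and 6 h alone, HK2 gave 4.46 and 4.47 h in siIGF2BP2 and 4.74 h by both in siIGF2BP3. LDHA gave 13.3 h by both in siIGF2BP1 and 18.5 h in siIGF2BP2. PFKFB3 gave 2.18 and 2.19 h, 2.27 and 2.30 h, and 2.28 and 2.30 h in siControl, siIGF2BP1 and siIGF2BP2, and 2.53 h from 0 and 6 h in siIGF2BP3. Without each library, HK2 ranged over 3.26 to 4.26, 3.90 to 4.77, 3.64 to 4.03 and 4.19 to 4.39 h, PFKFB3 over 1.62 to 2.18, 1.87 to 2.15, 1.93 to 2.19 and 1.91 to 2.76 h, and LDHA over 13.1 to 193, 19.7 to 28.6, 19.2 to 35.5 and 59.6 to 6750 h.

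Over 66 pairs of groups the correlation of deviations between replicates had a median of 0.0123 and a highest value of 0.302, and 6 were over 0.1. Most of these pairs join different conditions, so the median cannot show whether replicate numbers pair the times of a condition. With the replicate number as a block, the calls at 0 h were 3, 3 and 2, those over all times 5, 4 and 4, the falls 3, 3, 3 and 2, and the slope differences 0 in each knockdown, all as without it. The block was a single term over all conditions, so it could not take up a plate difference within a condition.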
